A study of Mus musculus with 4 samples.

Results

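The classical TGF-beta target genes studied here are 9 genes that cells are known to switch on soon after TGF-beta family ligands bind: Edn1, Spsb1, Snai1, Bhlhb2 (now Bhlhe40), Klf10, Junb, Tgfbi, Cyr61 (now Ccn1) and Ctgf (now Ccn2). Every non-control probe that carried one of these names was taken, which gave 12 probes of the 41174 on the array: 3 of Spsb1, 2 of Junb and 1 of each other gene. RNA came from C2C12 cells, a mouse myoblast line that fuses into myotubes in low serum. The treated cultures received GDF8, which is myostatin, at 20 nM every 24 h over 6 days of differentiation, and the untreated cultures differentiated over the same 6 days without it. All cultures had first been grown in 10% fetal bovine serum, and the labels give both 2% and 10% for the horse serum of differentiation. Each of 4 dual-colour Agilent arrays on 1 slide compared 1 GDF8 RNA with 1 untreated RNA, with GDF8 in Cy5 (red) on replicates 2 and 3 and in Cy3 (green) on replicates 1 and 4. The labels call the arrays biological replicates and also call arrays 1 and 4 dye swaps, without saying whether separate cultures lay behind each array or whether arrays share RNA. Were they 2 dye-swapped pairs of the same RNA, there would be 2 independent samples and not 4, so the p-values measure the spread between these arrays, which may be partly technical.

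Myostatin is a TGF-beta family ligand made by muscle. It binds activin type II receptors, which pair with type I receptors and phosphorylate Smad2 and Smad3, and these join Smad4 and enter the nucleus to bind short DNA motifs beside partners such as AP-1. The genes described here are among the best known readouts of that route in many cell types, and several of them also answer to serum, stretch and the YAP and TEAD factors. They code for a secreted peptide (Edn1), an adaptor of a ubiquitin ligase (Spsb1), transcription factors (Snai1, Bhlhb2, Klf10, Junb) and matrix proteins (Tgfbi, Cyr61, Ctgf).

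Of the 12 probes, 11 were bright enough to be tested and 1 rose: the probe of Edn1 was 1.64-fold higher in GDF8 cells than in untreated cells. No member probe was lower. Over all 26926 probes tested, 0.772% passed as higher and 1.95% as lower. Without adjustment, 3 member probes (Edn1, 1 of Spsb1 and Bhlhb2) had a p under 0.05 and all were higher, beside 5.5% of all probes higher and 6.66% lower. Of these, Bhlhb2 was positive only on the 2 arrays where its GDF8 channel was at the scanner's upper limit. It gave -0.02 when spots at that limit were left out. The median log2 ratio was 0.14 over the 11 member probes, 6 of which were saturated somewhere, and 0.22 over the 5 that never were (from -0.25 to 0.72), beside 0.01 over all probes tested. A rise here means more RNA per unit of total RNA. In a bulk sample, more cells of a type and more RNA per cell cannot be told apart.

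What could be read from a member depended on its brightness. Probes of 5 members (Bhlhb2, Klf10, Cyr61, Ctgf and Junb) were saturated, that is, at the scanner's upper limit, in at least 1 channel of 1 array. Probes of the other 4 members (Edn1, Spsb1, Snai1 and Tgfbi) never were, and of their 6 probes 5 were tested. By symbol, 6 of the 9 members matched a RefSeq promoter window. The windows of these 4 genes (RefSeq, GRCm38.p6, from 250 bases before the start site to 50 after it) are shown because theirs are the ratios that the scanner could measure in full. Edn1 lies at chr13:42301226-42301525 (+ strand), Spsb1 at chr4:149954957-149955256 (- strand), Snai1 at chr2:167537945-167538244 (+ strand) and Tgfbi at chr13:56609336-56609635 (+ strand). Capitals mark a match, on either strand, to any of the motifs searched: the Smad motif CAGAC, its palindrome GTCTAGAC, the AP-1 motif TGANTCA, the TEAD motif GGAATG, the SRF CArG box, the E box CACGTG and the Sp1/KLF motif GGGCGG.
Edn1: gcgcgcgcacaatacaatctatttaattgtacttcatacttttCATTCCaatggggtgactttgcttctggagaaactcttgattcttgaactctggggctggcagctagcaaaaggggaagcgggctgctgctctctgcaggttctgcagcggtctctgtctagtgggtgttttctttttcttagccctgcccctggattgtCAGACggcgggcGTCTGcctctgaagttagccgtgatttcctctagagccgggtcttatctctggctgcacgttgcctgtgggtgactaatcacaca
Spsb1: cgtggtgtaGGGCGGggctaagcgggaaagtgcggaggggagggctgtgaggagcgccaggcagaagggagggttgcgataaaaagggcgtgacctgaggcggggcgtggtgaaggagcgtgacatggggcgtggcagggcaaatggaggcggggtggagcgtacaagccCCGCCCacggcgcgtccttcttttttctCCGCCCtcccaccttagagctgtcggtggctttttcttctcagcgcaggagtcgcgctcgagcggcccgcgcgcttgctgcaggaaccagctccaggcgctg
Snai1: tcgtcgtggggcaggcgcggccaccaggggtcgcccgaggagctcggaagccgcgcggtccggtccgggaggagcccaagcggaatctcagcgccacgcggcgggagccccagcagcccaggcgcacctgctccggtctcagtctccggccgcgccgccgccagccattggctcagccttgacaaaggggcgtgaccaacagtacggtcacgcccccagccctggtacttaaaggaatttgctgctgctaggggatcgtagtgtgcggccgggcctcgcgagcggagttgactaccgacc
Tgfbi: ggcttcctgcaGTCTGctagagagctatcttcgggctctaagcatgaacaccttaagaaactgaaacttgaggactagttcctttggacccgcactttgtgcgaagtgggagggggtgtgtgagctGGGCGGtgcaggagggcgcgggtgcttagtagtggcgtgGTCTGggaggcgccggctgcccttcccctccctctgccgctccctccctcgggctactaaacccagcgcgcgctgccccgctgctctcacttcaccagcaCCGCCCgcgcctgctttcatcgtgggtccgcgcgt

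The Edn1 window held CAGAC in both orientations, beginning at -47 and at -35 from the start site, and a TEAD motif beginning at -207. The Tgfbi window held CAGAC at -239 and -85, both on the reverse strand, with GGGCGG at -124 and at 16. The Spsb1 window held GGGCGG at 3 places, and the Snai1 window held none of these letters. CAGAC was in 49.6% of all 32851 promoter windows, GGGCGG in 35.7%, GGAATG in 14.7%, TGANTCA in 7.81%, CACGTG in 7.15%, the CArG box in 1.63% and GTCTAGAC in 0.213%. No matches overlapped in the 4 windows shown, and a match is a description of the letters only.

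Edn1 codes for the precursor of endothelin-1, a peptide that constricts vessels and signals through the receptors Ednra and Ednrb. Its normalized log2 intensity was 10.11, 10.15, 10.20 and 9.65 in the GDF8 channels of replicates 1 to 4, against 9.49, 9.27, 9.54 and 8.95 in the untreated channels. Every GDF8 channel was above every untreated channel, and replicate 4 was low in both. Groups separated in this way at 2 of the 11 member probes, with GDF8 higher, and at 1.97% of all probes tested with GDF8 higher and 3.38% with GDF8 lower. The log2 ratio of GDF8 over untreated was 0.62, 0.88, 0.66 and 0.70 on replicates 1 to 4, so that each array gave a rise of between 1.54-fold and 1.85-fold. The mean was 0.72 ± 0.12 (SD, n = 4). With GDF8 in Cy5 the mean was 0.77, and with GDF8 in Cy3 it was 0.66, so the rise was present in both dye orientations.

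In limma, with a term for the dye, Edn1 gave 0.72 ± 0.09 (standard error), a 95% interval of 1.41-fold to 1.92-fold and an adjusted p of 0.014 over all probes. Only 0.279% of the probes tested had a higher ratio. In the authors' deposited table the Edn1 log2 ratio was 0.73, 1.03, 0.75 and 1.04 on replicates 1 to 4. Leaving out replicate 2 (0.66, limma adjusted p = 0.0796) or replicate 4 (0.70, adjusted p = 0.0503) ended the call, as did a comparison of channels that dropped the pairing by array (adjusted p = 0.134). If arrays 1 and 2, and likewise 3 and 4, were averaged as dye-swapped pairs the adjusted p was 0.06, whereas pairing 1 with 3 and 2 with 4 gave 7.76e-13. The second pairing left 2 averaged values per probe. It passed 1483 probes as higher and 1915 as lower, against 208 and 525 in the main fit, so its p-value is not read as stronger support. Over 18 alternatives the log2 ratio stayed between 0.66 and 0.89 and the adjusted p between 7.76e-13 and 0.261, with 13 past the threshold of 0.05. Some of these could not change the ratio of a single, never saturated probe. They were Aquantile scaling, no filter on dim probes, the brightest probe of each gene, and the settings on saturation. Their passes (limma adjusted p from 0.0122 to 0.0171) add no support. With 4 arrays the smallest two-sided p of an exact permutation of signs is 0.125.

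**Figure D1:**
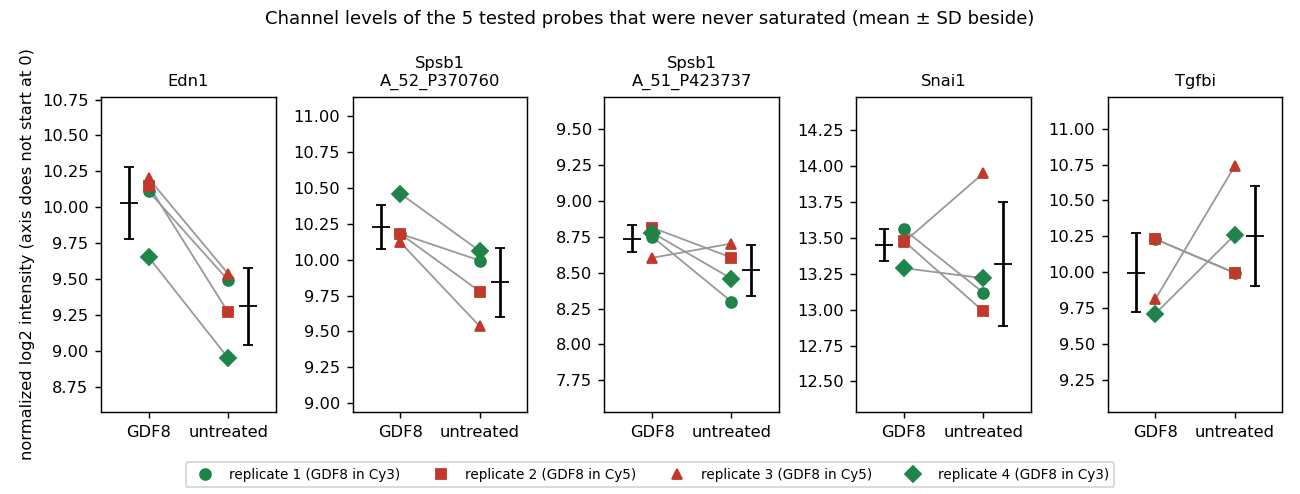
Normalized log2 intensity (vertical axes, each spanning the same range) in the GDF8 and untreated channels of each array for the 5 tested member probes that were never saturated; grey lines join the channels of an array, and black bars give the mean ± SD (n = 4). Edn1 and the Spsb1 probe A_52_P370760 show all 4 GDF8 channels above all 4 untreated channels, while Snai1 and Tgfbi rise on some arrays and fall on others.

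By the smallest root mean square difference of the 4 log2 ratios, the named genes most like Edn1 were Bub1b (0.065), Kif23 (0.076) and Kif14 (0.080), which act in mitosis. Bub1b, a spindle checkpoint kinase, gave 0.70, 0.94, 0.73 and 0.74 on replicates 1 to 4. This is a likeness over 4 arrays and says nothing of shared control.

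The other genes of the endothelin system did not pass. Of 6 such genes 4 were tested, with 7 probes, 0 higher, 0 lower and a median log2 ratio of 0.06. Ece1, the enzyme that cuts the precursor to the active peptide, gave -0.23 ± 0.10 (adjusted p = 0.388), with 3 untreated channels saturated, and -0.37 in the authors' deposited table. Ednra, the main receptor of muscle cells, gave 0.15 ± 0.09 at the probe with the smallest p (adjusted p = 0.645). Endothelial cells are a known source of Edn1. Of their markers, Pecam1 was well above background in 0 channels and Cdh5 in 1 untreated channel, while Kdr and Tek were detected in all 8 channels. Tek gave 0.35 ± 0.14 (adjusted p = 0.339) and Kdr 0.15 ± 0.09 (adjusted p = 0.637). Over a list of 10 endothelial, blood and nerve cell markers 6 were detected, beside 17641 of the 27597 genes on the array. Among the blood cell markers Ptprc was at background and Cd68 detected in every channel. The summed normalized intensity of this list ran from 20650 to 28790 in GDF8 channels and from 15350 to 17290 in untreated channels. For fibroblast and smooth muscle markers the GDF8 sums ran from 132500 to 145300 and the untreated sums from 143000 to 169600. Those groups overlapped, as did the sums of skeletal muscle and of adipocyte markers. These sums were not tested. Within the endothelial, blood and nerve cell list the neuronal tubulin Tubb3 gave 0.56 ± 0.12 and the globin Hba-a1 -0.42 ± 0.10. Neither was past the threshold (limma adjusted p = 0.066 and 0.087). Tubb3 passed without replicate 1 (0.70, adjusted p = 0.0367) and with median centring (adjusted p = 0.0432). The part of these cells in the Edn1 result was not tested.

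Spsb1, a SPRY domain protein with a SOCS box that brings targets to a ubiquitin ligase, was measured by 3 probes that did not give 1 value. Probe A_52_P370760 gave log2 ratios of 0.18, 0.40, 0.59 and 0.40 on replicates 1 to 4. All 4 were positive, as were those of 7.59% of all probes tested, and its GDF8 channels (10.12 to 10.46) lay above its untreated channels (9.53 to 10.06). With median centring in place of loess its ratios were -0.009, 0.771, 0.855 and -0.007 on replicates 1 to 4. The rise on the arrays with GDF8 in Cy3 was thus absent under that scaling. The main fit, with loess, gave 0.39 ± 0.10, or 1.31-fold with a 95% interval of 1.12-fold to 1.54-fold, and an adjusted p of 0.107.

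Probe A_51_P423737 of Spsb1 gave 0.45, 0.21, -0.10 and 0.32, positive on 3 of 4 arrays, and its fit (0.22 ± 0.10, adjusted p = 0.448) did not pass, nor did its 0.37 in the authors' deposited table (adjusted p = 0.294). Replicate 3 was thus the highest of the 4 arrays for one probe of Spsb1 and the lowest for the other. The probe A_52_P3784, which the array design assigns to another transcript accession, was well above background in 1 GDF8 and 1 untreated channel and was not tested. Of the other SPSB genes, Spsb4 was 1.44-fold higher, with log2 ratios of 0.39, 0.58, 0.53 and 0.62 (fit 0.53 ± 0.09, adjusted p = 0.0345). Without replicate 2, 3 or 4 its adjusted p was 0.19, 0.128 or 0.121. Spsb2, saturated on some arrays, gave -0.21 ± 0.09 and Spsb3 0.11 ± 0.09, neither past the threshold.

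Snai1, a zinc finger repressor of epithelial genes that drives epithelial to mesenchymal transition, gave log2 ratios of 0.43, 0.49, -0.48 and 0.07 on replicates 1 to 4. Its untreated channels spread more widely (12.99 to 13.95) than its GDF8 channels (13.29 to 13.56) and overlapped them. The fit gave 0.13 ± 0.16, with a 95% interval of 0.837-fold to 1.43-fold and an adjusted p of 0.881. Without replicate 2 the value was -0.12, and without replicate 3 it was 0.37.

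Tgfbi, a secreted matrix protein that binds integrins and was named for its induction by TGF-beta, gave 0.23, 0.24, -0.92 and -0.55 on replicates 1 to 4. The sign was the same on replicates 1 and 2 and opposite on replicates 3 and 4, although each of these pairs holds both dye orientations. Its intensity in GDF8 channels was 10.23, 10.23, 9.81 and 9.71, against 9.99, 10.00, 10.74 and 10.26 in untreated channels, and the groups overlapped. The fit gave -0.25 ± 0.21, with an interval of 0.6-fold to 1.18-fold and an adjusted p of 0.793, and without replicate 3 the value was 0.04. Its relative Postn (periostin), also a matrix protein, gave 0.37 ± 0.10 (adjusted p = 0.128) at a probe positive on 4 of 4 arrays. In the authors' deposited table the fit of that probe was 0.80 (adjusted p = 0.0277). A second Postn probe, saturated in 3 GDF8 and 3 untreated channels, gave 0.08 ± 0.10 (adjusted p = 0.885).

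**Figure D2:**
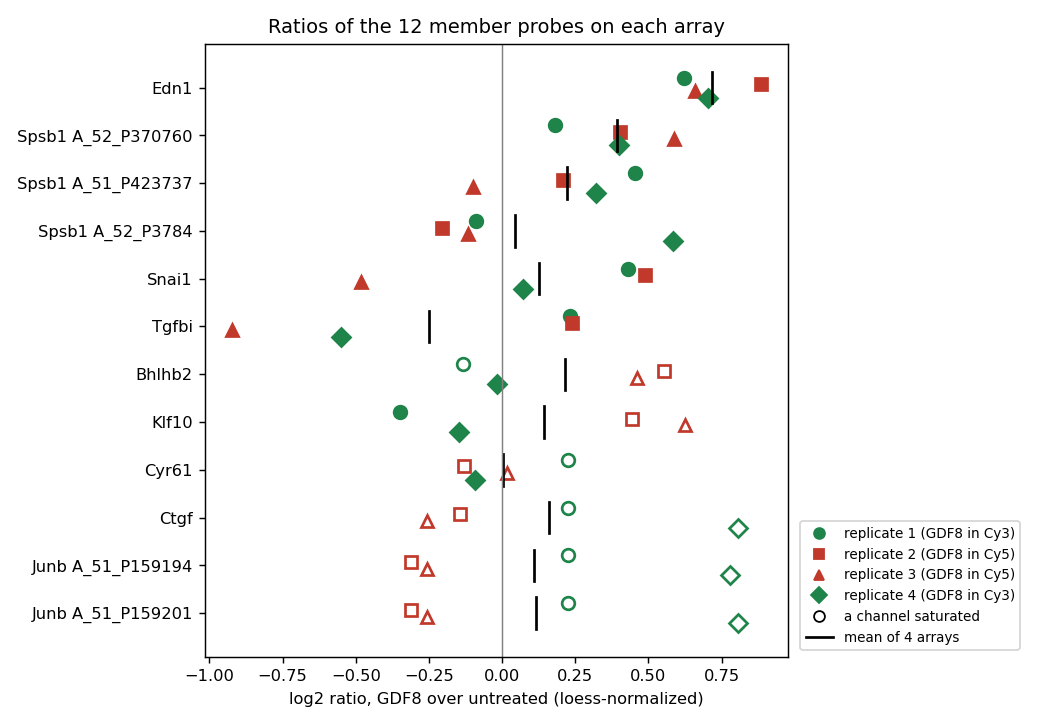
Log2 ratio of GDF8 over untreated (horizontal axis) for the 12 member probes on each of 4 arrays; symbols mark replicates, colour marks the dye of GDF8, open symbols mark a spot saturated in at least 1 channel and black bars mark means. Edn1 stands at 0.62 to 0.88 on every array and Tgfbi runs from -0.92 to 0.24. Both Junb probes fall on nearly the same 4 places, as does Ctgf except on replicate 2 (-0.14).

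Junb, an AP-1 subunit that TGF-beta induces early, was at the upper limit on nearly every spot. The probe A_51_P159201 was saturated in all 8 channels, and A_51_P159194 in 3 GDF8 and 4 untreated channels. Their log2 ratios were 0.23, -0.31, -0.26 and 0.81 for A_51_P159201, and 0.23, -0.31, -0.26 and 0.78 for A_51_P159194. The median over every probe saturated in both channels of an array was 0.23, -0.31, -0.26 and 0.81 on replicates 1 to 4 (2101, 1584, 1863 and 267 probes), with quartiles within 0.001 of it on each array.

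The Junb ratios are thus those of any probe at the limit, and no fold is given for Junb. Ctgf, a matricellular growth factor partner, was saturated in all 4 GDF8 channels and in 3 untreated channels, and its ratios of 0.23, -0.26 and 0.81 on replicates 1, 3 and 4 were the same values. Its untreated channel was below the limit on replicate 2 alone, with 9.09% of its pixels saturated, and that array gave -0.14. No fold is given for Ctgf either, since its untreated signal was itself at the limit on 3 arrays. The 239 probes saturated in both channels of every array had a fitted log2 ratio of 0.12 (lower and upper quartile 0.12), above the 0.01 of all probes tested. Probes of Jund, Klf4 and Snai2 also gave 0.12, and a small positive ratio of a saturated probe is therefore not read as a rise.

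**Figure D3:**
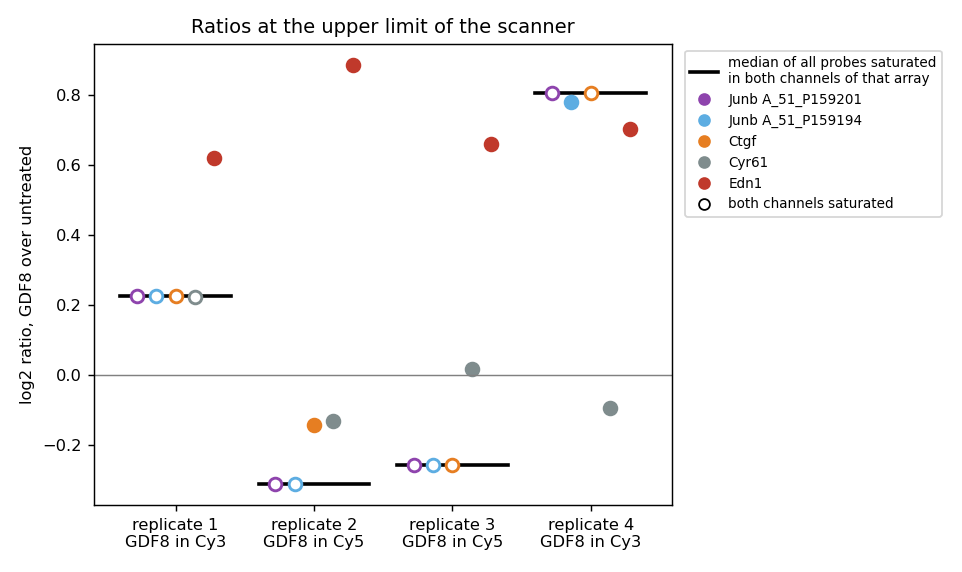
Log2 ratio of GDF8 over untreated (vertical axis) on each array for both Junb probes, Ctgf, Cyr61 and Edn1, with the black line at the median of all probes saturated in both channels of that array; open points are saturated in both channels. Every open point lies on the line, and Edn1, never saturated, lies at 0.62 to 0.88 on every array.

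Bhlhb2, a basic helix-loop-helix repressor of the clock and of differentiation, and Klf10, the TGF-beta-inducible early gene, lay just below the limit and reached it in Cy5 only. Bhlhb2 gave -0.13, 0.55, 0.46 and -0.02 on replicates 1 to 4, and Klf10 gave -0.35, 0.44, 0.62 and -0.15. Both were positive on the 2 arrays with GDF8 in Cy5, where the GDF8 channel was saturated, and negative on the 2 with GDF8 in Cy3. In the authors' deposited table the same arrays gave 0.40, -0.06, -0.04 and 0.43 for Bhlhb2, of opposite sign on every array, and 0.13, -0.21, 0.19 and 0.37 for Klf10, of opposite sign on all but replicate 3. On arrays with neither channel flagged, Bhlhb2 gave -0.02 (replicate 4) and Klf10 gave -0.35 and -0.15 (replicates 1 and 4), where 30.4% of the untreated pixels of replicate 1 were saturated. The fits of 0.22 ± 0.09 for Bhlhb2 (adjusted p = 0.4) and 0.14 ± 0.10 for Klf10 (adjusted p = 0.699) did not pass.

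Cyr61, a matricellular protein and a close relative of Ctgf, was saturated in 3 GDF8 channels and 1 untreated channel. It gave 0.22, -0.13, 0.02 and -0.09 on replicates 1 to 4, and the only array with neither channel flagged was replicate 4, where 40% of the untreated pixels were saturated. On replicates 2 and 3 the GDF8 channel alone was at the limit. The fit gave 0.0045 ± 0.10 with a sign that turned under 6 alternatives, and since the limit enters it no fold is given for Cyr61. The other CCN family genes that could be tested did not pass: Ccn3 gave 0.0026 ± 0.12, Ccn5 -0.06 ± 0.14 and Ccn4, saturated on most arrays, 0.08 ± 0.10.

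The dye term, which says how far a ratio followed the dye and not the treatment, varied among the saturated probes. It was -0.40 ± 0.12 for Junb (A_51_P159201), 0.39 ± 0.10 for Klf10, -0.36 ± 0.12 for Ctgf and 0.29 ± 0.09 for Bhlhb2, but -0.06 ± 0.10 for Cyr61. Among the probes never saturated it ran from -0.17 ± 0.10 for Spsb1 (A_51_P423737) to 0.10 ± 0.10 for Spsb1 (A_52_P370760), with 0.06 ± 0.09 for Edn1. By limma's adjusted p 0 of 11 member probes had a dye effect, as for 0 of all probes tested, although 23.1% of all probes had an unadjusted p under 0.05. With median centring in place of loess 7 of the 11 passed, and 4 passed with the authors' deposited values. The share of all probes that passed under those settings is not given here, so these counts are not read as a trait of the members.

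Related genes, in lists chosen with earlier results of these data known, showed few calls. Of 30 other textbook TGF-beta-induced genes 29 were tested, with 59 probes: 1 was higher, 0 were lower, and the median log2 ratio was 0.12, the value of probes at the limit, with 25 probes saturated somewhere. Over the 34 never saturated the median was 0.18. The probe that rose was of Pmepa1, a membrane protein that holds back Smad signalling, which gave 0.62, 0.28, 0.44 and 0.76 (fit 0.52 ± 0.09, 1.44-fold, adjusted p = 0.0352). It did not pass when any 1 of the 4 arrays was left out (adjusted p from 0.0608 to 0.187), and a brighter, saturated Pmepa1 probe gave 0.10 ± 0.09. Tagln, a smooth muscle actin-binding protein, gave 0.51, 0.46, 0.40 and 0.40 (fit 0.44 ± 0.09, adjusted p = 0.0567), and its second probe, saturated in every channel, gave the 0.12 of the limit.

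Of 29 genes of the TGF-beta and activin pathway (ligands, binding proteins, receptors, Smads, Smad ubiquitin ligases and cofactors) 27 were tested, with 43 probes, 0 higher, 0 lower and a median of 0.03. Those with the smallest p were Fst, which codes for follistatin, a trap for myostatin and activin (-0.33 ± 0.09, adjusted p = 0.154), and Smad3 (-0.33 ± 0.10, adjusted p = 0.178). Fst gave -0.835, 0.0544, 0.148 and -0.685 on replicates 1 to 4, negative only with GDF8 in Cy3. Smad3's other probes gave -0.28 and -0.05. The 24 paralogs of the members gave 27 tested probes, of which Spsb4 alone passed, and a median of 0.10.

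Of 20 YAP and TEAD target genes, a group that Ctgf and Cyr61 belong to, 36 probes were tested, with 0 higher, 0 lower and a median of 0.05. Ankrd2, a stretch-response protein of muscle, gave -0.61 ± 0.13 (adjusted p = 0.0687), and without replicate 3 passed at -0.78 (adjusted p = 0.0245), as it did with median centring (adjusted p = 0.0376). Tead4 gave -0.38 ± 0.09 (adjusted p = 0.0924). Of 20 immediate early genes, a group that holds relatives of Junb, 28 probes gave 0 calls and a median of 0.09, or 0.08 over the 16 never saturated, with the nuclear receptor Nr4a1 at -0.29 ± 0.10 and Myc at 0.21 ± 0.09. Nr4a1 gave -0.76, 0.142, -0.0332 and -0.499 on replicates 1 to 4, lower mainly with GDF8 in Cy3. Of 9 epithelial to mesenchymal transition genes, the targets and relatives of Snai1, 18 probes gave 0 calls and a median of 0.11, with Fn1 (fibronectin) at 0.41 ± 0.12 and Cdh1 (E-cadherin) at -0.29 ± 0.10, or -0.62 in the authors' deposited table, where it did not pass either (adjusted p = 0.16). Of the 18 probes 6 were saturated somewhere, 4 of them in every channel. Fn1's other probes, all saturated somewhere, gave 0.19, 0.12 and 0.10.

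**Figure D4:**
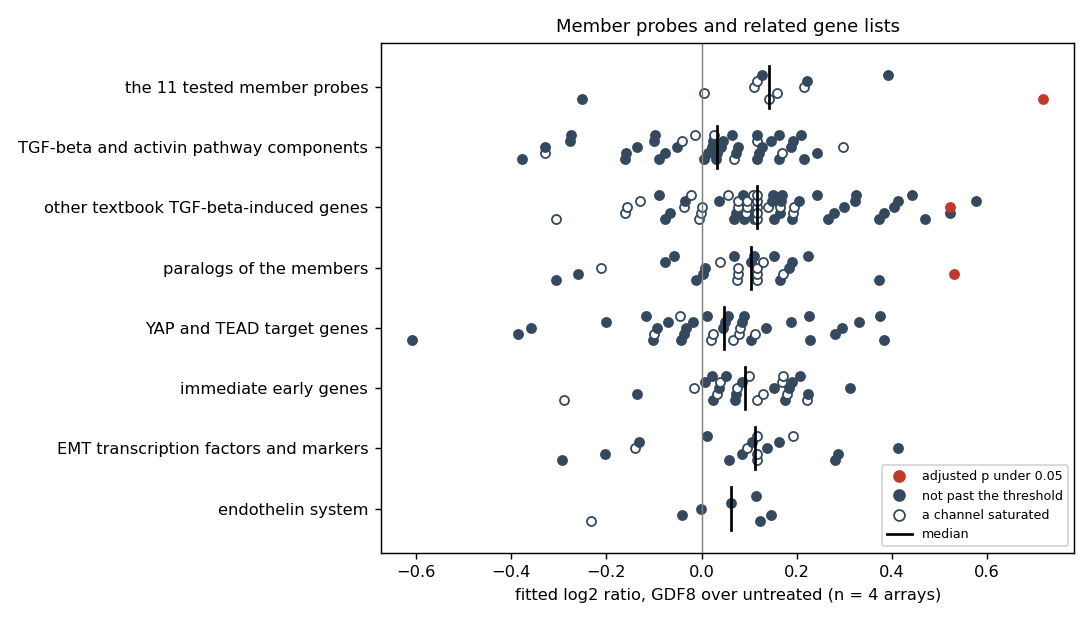
Fitted log2 ratio of GDF8 over untreated (horizontal axis, n = 4 arrays) for the 11 tested member probes and for each tested probe of 7 related lists; red marks an adjusted p under 0.05, open points a probe saturated somewhere, and black bars list medians. Edn1, Pmepa1 and Spsb4 are the red points, at 0.72, 0.52 and 0.53.

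Of 10 skeletal muscle markers 10 were detected, and 11 of their 13 probes were saturated somewhere. Detected means that a probe was well above background in all 4 channels of a group. By that measure 17641 of the 27597 genes on the array were detected. Ckm, muscle creatine kinase, was lower in GDF8 cells (-0.93 ± 0.17, adjusted p = 0.0424), but not past the threshold without replicate 1, 2 or 4 (adjusted p = 0.107, 0.0892 and 0.102). The median of the muscle list was -0.02. Myf5, the only other marker of it never saturated, gave 0.03 ± 0.13 (adjusted p = 0.968). Myh3 gave -0.23 ± 0.09 (adjusted p = 0.355) at a probe saturated in all 4 untreated channels. Of 8 fibroblast and smooth muscle markers 6 were detected and 0 probes passed, with a list median of -0.01. Cnn1 gave 0.56 ± 0.13 (adjusted p = 0.081). It passed without replicate 3 (0.71, adjusted p = 0.0389) and with median centring (adjusted p = 0.0162), but not without replicate 1, 2 or 4. Lum, saturated on some arrays, gave -0.46 ± 0.17 and Smtn -0.20 ± 0.10. Pdgfra gave -0.18 ± 0.14 and -0.01 ± 0.09 at its probes, and Dpt 0.01 ± 0.19. Acta2 gave -0.31 ± 0.10 at a probe saturated in all 4 untreated channels. At its probes never saturated it gave 0.38 ± 0.13, positive on 4 of 4 arrays, and -0.09 ± 0.09 (adjusted p = 0.846). Of 6 adipocyte markers 2 were detected, Pparg at 0.09 ± 0.09 and Fabp4 at -0.08 ± 0.11, with Cfd and Lep at background in every channel. Arrays of the same dye orientation correlated across the 26926 probes at 0.44 (replicates 1 and 4) and 0.448 (replicates 2 and 3), and those of opposite orientation between -0.181 and 0.183, as a description of arrays that share the dye. The share of spots saturated ran from 0.745% to 12.1% in GDF8 channels and from 4.11% to 11.1% in untreated channels, and the number of arrays limits the precision of every value.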

How the data were processed

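Dual-colour arrays of 4 pairs of GDF8 and untreated RNA were used, each read by the authors with Agilent Feature Extraction 9.1.1.1, per the file headers. The deposited scanner files give spot intensity (mean signal and median background) for each dye, a log10 ratio of red over green, and flags. A second deposited table gives log2 values. For 100% of 40929 single-spot probes these were within 0.001 of the processed signals' log2 ratio of GDF8 over untreated, by the dye labels, without centring (column medians 0.136, -0.0927, -0.113 and 0.092). No genome build of the array is given in the sources used here, so no probe coordinates are printed; promoter coordinates are RefSeq's.

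Mean signals were background-corrected by normexp (offset 50), normalized within arrays by loess with control spots at weight 0, and averaged per probe without outlier-flagged spots, in limma 3.58.1 under R 4.3.3. A probe was tested if well above background in all 4 GDF8 or all 4 untreated channels. Each probe stood alone, since probes of a gene differed in saturation. Ratios were fitted with a GDF8 and a dye term (array as the block), and p-values adjusted by Benjamini-Hochberg over 26926 probes at 0.05. Intervals of folds are the fit's at 95%. Channel levels are after loess and Aquantile. Symbols were updated through RefSeq: 24375 probes by accession, 6301 by symbol, 2426 by synonym, with 8072 kept. The fit was tested on simulated data. A probe that missed the threshold may still have changed.

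Members and gene lists were chosen with earlier results of these data known. Named beside the members were each list's genes past the threshold or, where fewer than 2 passed, its 2 genes with the smallest p, and the 3 genes most like the member with the smallest p. Spsb2, Spsb3, the CCN genes, Jund, Klf4, Snai2 and second probes were named outside that rule, after their values were seen. So were Tek, Kdr, Myf5, Lum, Smtn, Pdgfra, Dpt and the markers given by detection alone. Alternatives covered background, offset, scaling, filter, dye term, pairing, brightest probe, saturation, the deposited table, the methods' unpaired t-test, a fold of 1.6, each array left out, and averaged array pairs.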

Additional observations from a re-analysis of the deposited data

Results flagged for a closer look

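Among 23 sets of 4 array values searched (the 12 member probes and 11 list medians), 2 held an array far from the other 3, where chance gives about 1 in 20. The dim Spsb1 probe A_52_P3784 gave a log2 ratio of 0.585 on replicate 4, against -0.09, -0.21 and -0.12 on replicates 1 to 3, and was well above background there in the GDF8 channel only. The median of the endothelial, blood and nerve cell markers was -0.137 on replicate 4, against 0.23, 0.25 and 0.21 on replicates 1 to 3.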

How the results depend on the processing

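The count of member probes higher with GDF8 was 1, and it was 0 with single channels and no replicate block, 0 with arrays 1 and 2 and arrays 3 and 4 averaged, 0 by the methods' t-test after Benjamini-Hochberg (1 at their own thresholds), 2 with arrays 1 and 3 and arrays 2 and 4 averaged, and 0 to 1 when an array was left out; it was 1 under every other alternative. The probe gained was the Spsb1 probe A_52_P370760 (adjusted p = 0.000419), and over all probes these pairings gave 25 higher and 194 lower, or 1483 and 1915, against 208 and 525. Among the alternatives that gave 1, those on Aquantile, filter, brightest probe and saturation could not change the Edn1 ratio. Over all probes the higher count alone moved by over 1.5 times with processed signals (109) and the deposited table (135), and both counts did with no dye term (87 higher, 342 lower), single channels (64, 285), the methods' t-test after Benjamini-Hochberg (25, 76), without replicate 2 (30, 184) and without replicate 4 (62, 218). The count of members lower was 0 throughout. Member probes with a dye effect numbered 0, but 7 with median centring and 4 with the authors' deposited log2 table, and 0 with any array left out. The share of all probes with a dye effect under those settings is not given here. Ratios near 0 changed sign: Cyr61 (-0.0025 with an offset of 10, -0.0422 with median centring, -0.0935 with saturated spots missing, -0.0256 in the deposited table, and -0.0749 to 0.0839 without 1 array), Bhlhb2 (-0.0189) and Klf10 (-0.25) with saturated spots missing, and, over fits without 1 array, Junb (-0.0288 to 0.248 and -0.029 to 0.261), Snai1 (-0.116 to 0.37), Tgfbi (-0.542 to 0.0392) and Fabp4 (-0.18 to 0.0276). The causes were not tested.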
